A study of Homo sapiens with 8 samples.

Results

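The DNA replication machinery was followed through 51 genes, chosen by name as the rows of the deposited count table whose gene equals one of a fixed list of replication factors. All 51 were among the 25369 named genes of the table, and all 51 were among the 17714 genes that passed the filter on low counts. Their counts ran from 454 to 19463 per library. They fall into 10 roles: origin recognition (6 genes), licensing factors (3), the MCM2-7 helicase (6), helicase activation (8), primase and polymerases (9), clamp and clamp loader (6), RPA, FEN1 and LIG1 (5), nucleotide supply (3), fork protection (3) and chromatin assembly (2).

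The libraries were poly(A) RNA of UWB1.289, an ovarian cancer cell line that has lost BRCA1 function (BRCA1-null), and of the line made from it by putting BRCA1 back (BRCA1+). Both lines share the UWB1.289 background, each is a single line, and each was kept for 24 h in 0.5 uM entinostat, an inhibitor of class I histone deacetylases, or in the DMSO vehicle (control). This gives 4 groups of 2 libraries: BRCA1+ control, BRCA1+ entinostat, BRCA1-null control and BRCA1-null entinostat. The labels do not say that the 2 libraries of a group came from separate cultures, so p-values measure only the spread between these samples, which may be technical.

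Replication starts in G1, when the origin recognition complex (ORC), CDC6 and CDT1 load the MCM2-7 helicase onto chromatin, and geminin (GMNN) later holds CDT1 back so that no origin is licensed again. In S phase the kinase CDC7 with DBF4, together with MCM10, CDC45 and the GINS complex, turns the loaded helicase into a moving fork. Primase and polymerase alpha then start each strand, and polymerases delta and epsilon extend it on the sliding clamp PCNA, which the RFC complex loads. Many of these genes are transcribed at the G1/S boundary under E2F factors, which RB1 restrains. BRCA1 itself acts in homologous recombination and in protecting stalled forks.

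The 300 bases around the transcription start, 250 before it and 50 after it, were available for 45 of the 51 genes in RefSeq on GRCh38.p14. A match to any of 5 E2F site sequences (TTTGGCGC, TTTCGCGC, TTTCCCGC, TTTGGCGG or TTTCCCGG, on either strand) was present in 23 of the 45 promoters, which is 51.1%. The share was 7.16% of the 11745 promoters of tested genes and 4.82% of all 27305 promoters in the table. The CCAAT box (CCAAT, either strand) stood in 57.8% of the 45 promoters and in 35.9% of the tested genes' promoters. The SP1 site (GGGCGG, either strand) stood in 71.1% against 66.4%, and the CHR element of mitotic promoters (TTTGAA, either strand) in 4.44% against 10.2%. A match describes letters in this window only, and the E2F and CCAAT letters can overlap. The promoters below are those of the 3 genes that were lower in all 4 pairwise comparisons described further on, and of RFC1, which was higher in 3 of them. Capitals mark E2F and CCAAT matches, and each sequence is written 5′ to 3′ on the strand of its gene.
MCM7, chr7:100101348-100101647, minus strand: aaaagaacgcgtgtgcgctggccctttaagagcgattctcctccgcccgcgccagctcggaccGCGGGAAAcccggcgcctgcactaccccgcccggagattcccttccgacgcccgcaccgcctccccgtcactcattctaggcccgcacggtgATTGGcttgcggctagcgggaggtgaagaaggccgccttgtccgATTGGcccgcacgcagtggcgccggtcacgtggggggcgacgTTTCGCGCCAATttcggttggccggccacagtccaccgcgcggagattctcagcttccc
LIG1, chr19:48170295-48170594, minus strand: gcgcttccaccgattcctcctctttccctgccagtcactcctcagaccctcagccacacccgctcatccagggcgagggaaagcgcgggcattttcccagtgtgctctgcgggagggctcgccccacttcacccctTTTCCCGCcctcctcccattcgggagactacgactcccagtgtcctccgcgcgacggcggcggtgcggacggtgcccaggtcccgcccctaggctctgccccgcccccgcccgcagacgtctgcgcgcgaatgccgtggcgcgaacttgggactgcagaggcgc
RRM2, chr2:10122489-10122788, plus strand: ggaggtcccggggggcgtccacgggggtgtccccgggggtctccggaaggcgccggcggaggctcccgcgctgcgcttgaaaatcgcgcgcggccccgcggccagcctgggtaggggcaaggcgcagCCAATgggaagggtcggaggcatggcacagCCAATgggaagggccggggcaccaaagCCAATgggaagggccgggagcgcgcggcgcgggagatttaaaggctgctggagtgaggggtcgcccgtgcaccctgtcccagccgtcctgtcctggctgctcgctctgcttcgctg
RFC1, chr4:39366313-39366612, minus strand: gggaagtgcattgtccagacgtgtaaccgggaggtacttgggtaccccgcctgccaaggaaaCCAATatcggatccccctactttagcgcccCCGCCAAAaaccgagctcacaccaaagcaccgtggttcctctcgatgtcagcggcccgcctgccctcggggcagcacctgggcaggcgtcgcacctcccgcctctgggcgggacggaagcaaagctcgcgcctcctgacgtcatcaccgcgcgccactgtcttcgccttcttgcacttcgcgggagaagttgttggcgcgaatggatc
MCM7 carried 2 E2F matches and 3 CCAAT boxes, LIG1 carried 1 E2F match, and RFC1 carried 1 of each. RRM2 carried no match to the E2F letters and 3 CCAAT boxes. The E2F letters were therefore not confined to genes that were lower without BRCA1: they stood in 15 of the 25 promoters of genes called lower in BRCA1-null control cells, in 6 of 16 of those not called and in 2 of 4 of those called higher.

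Total counts ran from 31900158 to 53549893 per library. BRCA1, the gene that separates the lines, had 3954 and 4239 counts in the BRCA1+ control libraries and 4233 and 5473 in the BRCA1+ entinostat libraries, against 954 and 1218 in the BRCA1-null controls and 824 and 800 in the BRCA1-null entinostat libraries. It was lower in BRCA1-null control cells by a log2 fold change of -2.14 ± 0.086 (SE), with an adjusted p of 5.46e-07. Throughout, n is 2 libraries per group, log2 fold changes are given ± SE, and adjusted p-values come from the quasi-likelihood test of edgeR with Benjamini-Hochberg adjustment over all 17714 genes; a gene is called at an adjusted p under 0.05. Of 9 epithelial and Mullerian markers, all had counts in every library and their summed level was 14000 to 18440 CPM (counts per 1e+06 counts of the library after scaling), although WT1 did not exceed 0.500 CPM. The summed level of 12 leukocyte, endothelial and stromal markers was 40.9 and 42.7 CPM in the BRCA1+ controls and reached 79.7 and 81.3 CPM with entinostat. In BRCA1-null cells it was 103.6 and 106.4 CPM in the controls and 165.8 and 160.7 CPM with entinostat. DCN and LUM were at 0 in all 8 libraries, CD3E did not exceed 0.100 CPM, and 2 or 3 of the 12 markers were at 0 in each library. Of the 12, 9 passed the filter on low counts. In DMSO, 5 of these 9 had a higher call without BRCA1 and 0 a lower one. Their median log2 fold change was 1.09. Between the treated lines, 5 had a higher call without BRCA1 and 1 a lower one. After entinostat, 2 of the 9 had a higher call in each line and 0 a lower one. The part of these markers in the results below was not tested.

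Together the 51 genes took a smaller share of the RNA in BRCA1-null cells and after entinostat. They held 0.498% and 0.508% of all counts in the BRCA1+ controls, and 0.464% and 0.462% once these cells had received entinostat. The BRCA1-null controls held 0.451% and 0.450%, and their treated counterparts 0.420% and 0.421%. The 4 groups do not overlap in this share. In RNA of whole cultures, fewer cells in S phase and less RNA per cell cannot be told apart.

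**Figure D1:**
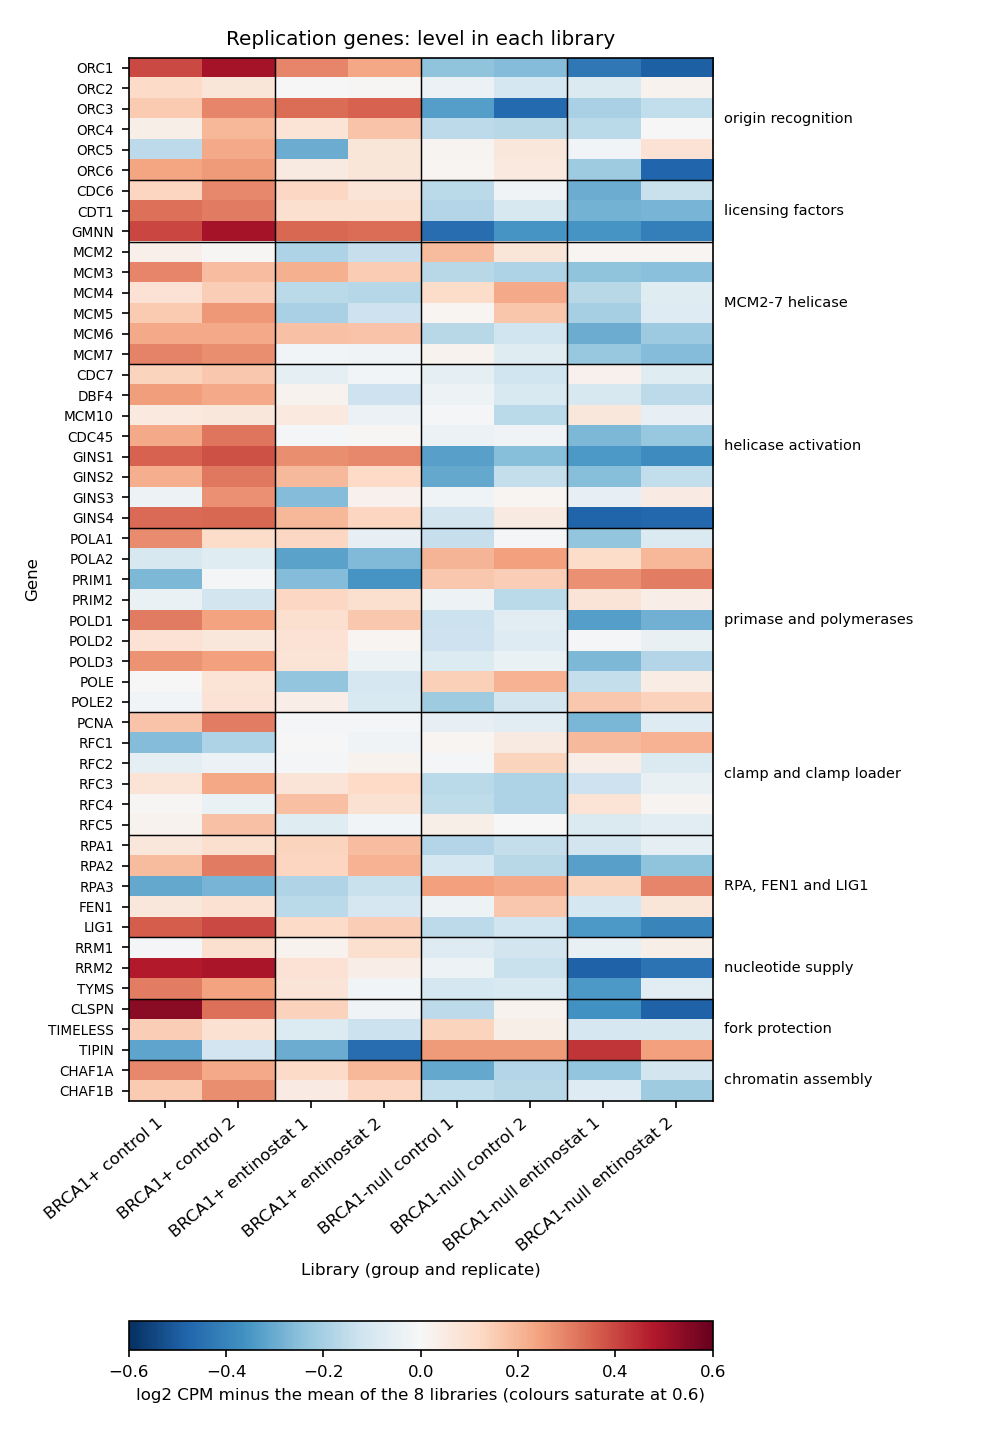
Level of each of the 51 replication genes (vertical axis, grouped by role) in each of the 8 libraries (horizontal axis), as log2 CPM minus that gene's mean over the 8 libraries, with red above and blue below the mean. GMNN, ORC1, CLSPN and RRM2 are among the darkest red in BRCA1+ control libraries, where GMNN reaches 94.4 CPM, and TIPIN, RPA3 and POLA2 run the other way.

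Levels differed widely within the set. Scaled per length (RPKM, reads per kilobase of transcript and per 1e+06 counts, averaged over the 8 libraries), TYMS, the thymidylate synthase, stood highest at 126, followed by PCNA at 122 and MCM7 at 96.5. The lowest were CHAF1B, a subunit of chromatin assembly factor 1, at 6.97, the checkpoint adaptor CLSPN at 6.12 and POLA1, the catalytic subunit of polymerase alpha, at 4.71. RNA levels also differed between subunits of one complex. Per length, the MCM7 level was 3.36 and 3.37 times that of MCM2 in the BRCA1+ control libraries and 2.49 and 2.53 times in the BRCA1-null controls, so the 2 lines do not overlap in this ratio.

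The first comparison asks how these genes differ between the lines without drug. In DMSO, 28 of the 51 genes were lower and 5 were higher in BRCA1-null than in BRCA1+ cells, and 18 were not called. Over all genes tested, 21.0% were called lower and 21.1% higher, so both directions were balanced genome-wide, while 54.9% of the replication genes were lower. Their median log2 fold change was -0.27, against 0.01 over all genes tested. Both BRCA1-null libraries lay below both BRCA1+ libraries for 35 of the 51 genes, which is 68.6%, against 34.8% of all genes tested. The decreases were modest in size, the greatest being less than 1 on the log2 scale.

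GMNN and ORC1, of licensing and origin recognition, showed the greatest decreases. GMNN, the inhibitor of CDT1 (chromosome 6, 24775159 to 24786325, hg19), was measured at 88.1 and 94.4 CPM in the BRCA1+ controls and at 48.5 and 52.1 CPM in the BRCA1-null controls. The groups are far apart, and the log2 fold change was -0.86 ± 0.066 with an adjusted p of 1.68e-05. ORC1, an ATP-binding subunit of ORC (chromosome 1, 52838501 to 52870143), had 52.1 and 56.1 CPM against 33.5 and 33.1 CPM, a log2 fold change of -0.70 ± 0.069 (adjusted p 6.12e-05). ORC3 (chromosome 6, 88299785 to 88377172) had 63.4 and 69.7 CPM against 45.3 and 41.1 CPM, a log2 fold change of -0.63 ± 0.074 (adjusted p 1.82e-04). All 3 genes were lower in both BRCA1-null libraries than in both BRCA1+ libraries. Of the other ORC subunits, ORC4 was lower by -0.28 ± 0.077 (adjusted p 0.0169), while ORC2, ORC5 and ORC6 were not called. All 3 genes of the licensing role were lower, the inhibitor GMNN as well as CDT1, by -0.46 ± 0.056 (adjusted p 2.24e-04), and CDC6, by -0.30 ± 0.083 (adjusted p 0.0167). The CDT1 to GMNN ratio per length was 0.648 and 0.596 in the BRCA1+ controls and 0.828 and 0.815 in the BRCA1-null controls.

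The helicase split by subunit. MCM3, MCM6 and MCM7 were lower, with log2 fold changes of -0.41 ± 0.058 (adjusted p 4.7e-04), -0.37 ± 0.056 (adjusted p 7.91e-04) and -0.31 ± 0.051 (adjusted p 0.00113). MCM2, MCM4 and MCM5, which with them form the heterohexamer, were not called, with differences of 0.11 ± 0.058, 0.05 ± 0.060 and -0.12 ± 0.077. MCM7 shares its locus with AP4M1 and 3 microRNA genes, and since the strand setting of the counting is not given, reads of overlapping genes cannot be told apart. Such an overlap is annotated for 13 of the 51 genes, among them DBF4 (with SLC25A40), TYMS (with TYMSOS and ENOSF1), RPA3 (with RPA3OS) and RFC4 (with EIF4A2). The highest count of an overlapping gene in any library was 760 for MCM7, 1137 for DBF4, 7714 for TYMS, 403 for RPA3 and 32522 for RFC4. MCM7 itself had at least 10972 counts in each library and RFC4 at most 5950. Among the activators of the helicase, 6 of 8 were lower. GINS1 (chromosome 20, 25388323 to 25429191), a subunit of the GINS complex, had 58.9 and 60.0 CPM in BRCA1+ and 36.8 and 38.5 CPM in BRCA1-null control libraries. Its log2 fold change was -0.66 ± 0.062 (adjusted p 4.78e-05), with no overlap between the lines. GINS2 and GINS4 were also lower, by -0.49 ± 0.085 and -0.36 ± 0.070, while GINS3 was at -0.14 ± 0.119 and not called. CDC45 (-0.31 ± 0.060), DBF4 (-0.30 ± 0.068) and CDC7 (-0.24 ± 0.066) were lower as well, and MCM10 (-0.15 ± 0.076) was not called.

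Genes that make DNA moved in both directions. POLD1, POLD2 and POLD3, subunits of polymerase delta, were lower by -0.37 ± 0.058, -0.18 ± 0.052 and -0.32 ± 0.073. POLA2, the regulatory subunit of polymerase alpha (chromosome 11, 65029432 to 65065088), was higher: 58.0 and 58.9 CPM in BRCA1+ controls against 71.4 and 73.5 CPM in BRCA1-null controls. Its log2 fold change was 0.31 ± 0.062 (adjusted p 0.00348). PRIM1, the catalytic subunit of primase (chromosome 12, 57125364 to 57146146), had 25.8 and 30.8 CPM against 34.8 and 34.5 CPM, a log2 fold change of 0.29 ± 0.090 (adjusted p 0.0295), and its call was lost in 5 of 18 alternatives. Polymerase alpha's catalytic subunit POLA1 (-0.27 ± 0.100), PRIM2 (-0.02 ± 0.075), POLE (0.13 ± 0.076) and POLE2 (-0.20 ± 0.089) were not called. Of the clamp and its loader, PCNA (-0.30 ± 0.073) and RFC3 (-0.33 ± 0.065) were lower and RFC1, the large loader subunit, was higher by 0.25 ± 0.053 (adjusted p 0.00423). PCNA overlaps the antisense gene PCNA-AS1. RFC2, RFC4 and RFC5 were not called.

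The single-strand binding protein RPA split in the same way. RPA1 and RPA2 were lower, by -0.24 ± 0.050 and -0.39 ± 0.068, and RPA3, the smallest subunit (chromosome 7, 7676575 to 7758238), was higher. RPA3 had 18.6 and 18.9 CPM in BRCA1+ controls and 27.3 and 26.9 CPM in BRCA1-null controls, a log2 fold change of 0.53 ± 0.082 (adjusted p 8.81e-04). The RPA3 to RPA1 ratio per length was 0.194 in both BRCA1+ controls and 0.337 and 0.325 in the BRCA1-null controls. LIG1, the ligase that seals Okazaki fragments, was lower by -0.52 ± 0.056 (adjusted p 1.11e-04), and the flap nuclease FEN1 was at -0.01 ± 0.084. In nucleotide supply, RRM2, the S-phase subunit of ribonucleotide reductase, had 235 and 237 CPM against 165 and 154 CPM, a log2 fold change of -0.57 ± 0.056 (adjusted p 6.06e-05). Its partner RRM1 was at -0.14 ± 0.062 and not called, so the RRM2 to RRM1 ratio per length was 1.71 and 1.60 in BRCA1+ controls and 1.26 and 1.20 in BRCA1-null controls. TYMS was lower by -0.37 ± 0.084 (adjusted p 0.00659), as was the fork adaptor CLSPN, by -0.50 ± 0.097 (adjusted p 0.00295). TIPIN, which binds TIMELESS at the fork (chromosome 15, 66629008 to 66649054), was higher, with 14.1 and 16.2 CPM in BRCA1+ against 21.0 and 21.0 CPM in BRCA1-null controls. Its log2 fold change was 0.47 ± 0.105 (adjusted p 0.00649), and TIMELESS itself was at -0.03 ± 0.059. CHAF1A (-0.50 ± 0.074) and CHAF1B (-0.38 ± 0.092), which deposit histones behind the fork, were both lower. Leaving out 1 control library ended the calls of ORC4, CDC6, CDC7, DBF4, PRIM1, POLD2, POLD3, PCNA or CHAF1B, and 24 of the 33 calls held in every alternative.

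**Figure D2:**
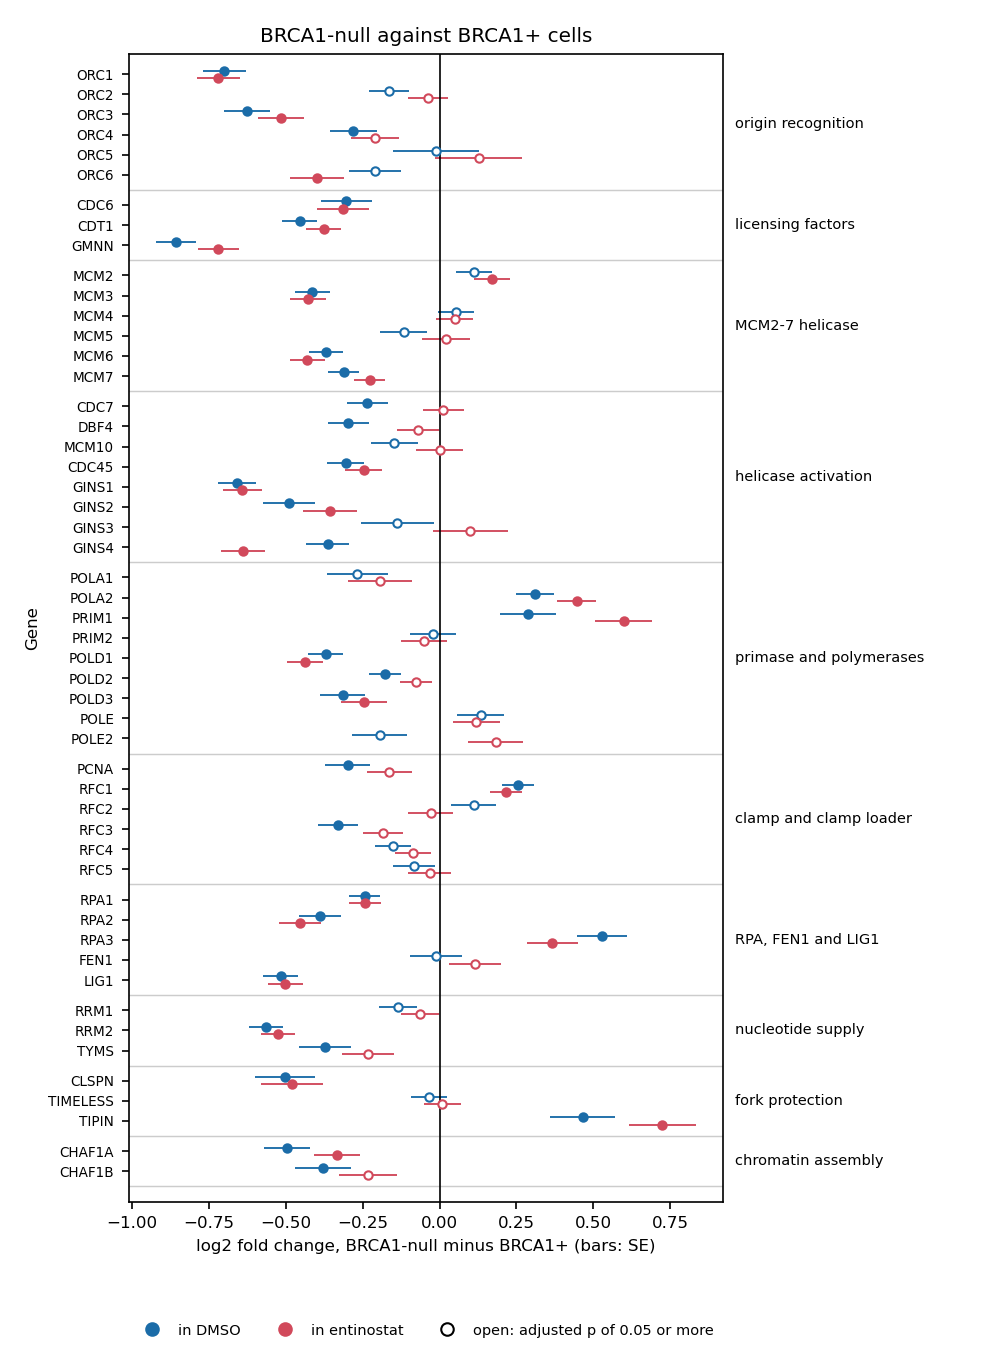
Log2 fold change of each replication gene (vertical axis, by role), BRCA1-null minus BRCA1+, in DMSO (blue) and in entinostat (red), with SE bars and open circles for genes not called. Most points lie left of 0, down to -0.86 for GMNN in DMSO, and TIPIN, PRIM1, POLA2, RPA3 and RFC1 lie right of it in both treatments.

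The differences were then set beside those of the chromosomal neighbourhood. For each gene the median log2 fold change of the 25 tested genes on each side was taken. Of all 51 genes, 42 were below their neighbours' median, and their own median was -0.27 against -0.03 for the neighbours. Among the 18 genes not called, 13 were below. Of the 28 lower genes, 26 were below, with a median of -0.37 against -0.09. These 28 were selected by their own low values in this comparison, so their count was largely given in advance. Of the 5 higher genes, 4 differed from their neighbours by less than 0.05: RPA3 was at 0.53 with neighbours at 0.54, TIPIN at 0.47 with neighbours at 0.45, POLA2 at 0.31 with neighbours at 0.33, and RFC1 at 0.25 with neighbours at 0.30. PRIM1 was the exception, at 0.29 among neighbours at -0.05, with a call that did not hold in every alternative. Some decreases also stood in lowered surroundings, ORC1 among neighbours at -0.41 and CDC7, at -0.24, among neighbours at -0.33. DNA copy number is not measured by these files, and its part was not tested.

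**Figure D3:**
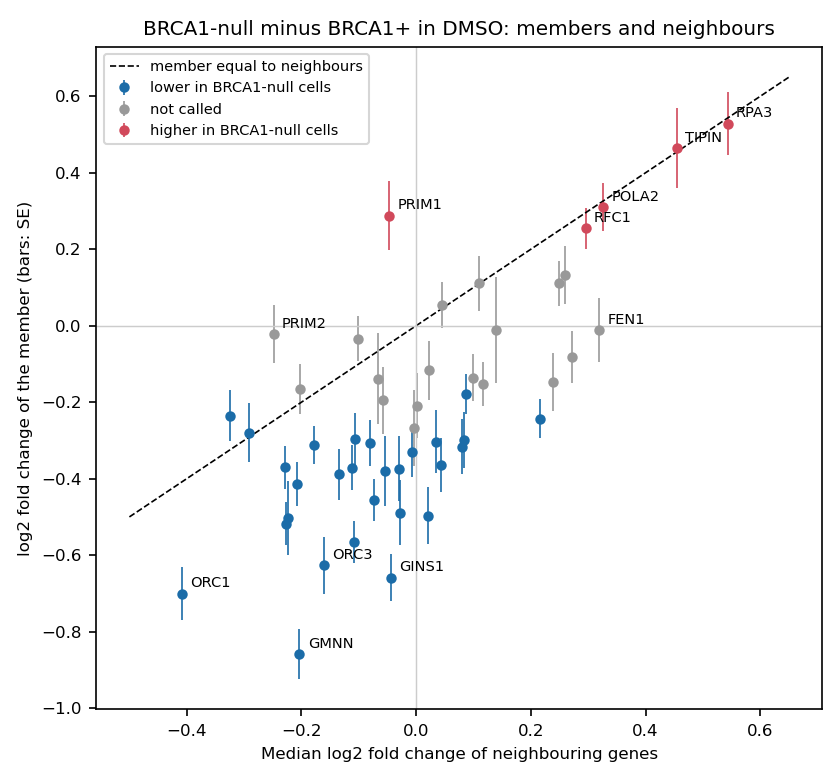
Log2 fold change, BRCA1-null minus BRCA1+ control, for each of the 51 genes (vertical axis, SE bars) against the median of its 25 tested neighbours on each side (horizontal axis), coloured by call, with a dashed line where both are equal. RPA3, TIPIN, POLA2 and RFC1 sit on the dashed line, each within 0.05 of it, and PRIM1 sits above it. Of all 51 genes, 42 sit below it by any amount. Among them are 26 of the 28 called lower, which were selected by their own low values.

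The same comparison under entinostat asks whether the difference between the lines was also seen in treated cells. In entinostat, 21 of the 51 genes were lower and 6 were higher in BRCA1-null cells, against 18.9% lower and 20.5% higher over all genes tested, and the median was -0.18 against 0.02. Both BRCA1-null libraries lay below both BRCA1+ libraries for 30 genes, or 58.8%, against 33.3% of all genes. The levels compared here are not those of the control libraries, but the fit takes its spread from all 8 libraries, so the 2 sets of calls are not independent. In both, 20 genes were called lower: ORC1, ORC3, CDC6, CDT1, GMNN, MCM3, MCM6, MCM7, CDC45, GINS1, GINS2, GINS4, POLD1, POLD3, RPA1, RPA2, LIG1, RRM2, CLSPN and CHAF1A. They are 20 of 28 in DMSO and 20 of 21 in entinostat. The same overlap was not counted over all genes tested. The 5 genes called higher in DMSO were again among the 6 called higher, joined by MCM2 at 0.17 ± 0.059 (adjusted p 0.0459), whose call was lost in 13 of 18 alternatives. Leaving out 1 library of these groups also ended the calls of CDC6, CDC45, GINS2, POLD3, RFC1, RPA3 and CHAF1A in this comparison.

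GMNN, ORC1, GINS1 and GINS4 showed the greatest decreases between the treated lines. GMNN was at 84.6 and 84.1 CPM in BRCA1+ entinostat and at 52.1 and 50.2 CPM in BRCA1-null entinostat libraries, a log2 fold change of -0.72 ± 0.066 (adjusted p 4.71e-05). ORC1 was at 48.5 and 46.5 against 29.4 and 28.3 CPM, a log2 fold change of -0.72 ± 0.071 (adjusted p 6.84e-05), and GINS1 at 55.8 and 56.2 against 36.3 and 35.5 CPM, a log2 fold change of -0.64 ± 0.063 (adjusted p 6.72e-05). None of these 3 genes overlapped between the lines. GINS4 was at 63.5 and 60.5 CPM in BRCA1+ and 39.7 and 39.9 CPM in BRCA1-null entinostat libraries, a log2 fold change of -0.64 ± 0.072 (adjusted p 1.43e-04). Among the higher genes, TIPIN had 14.3 and 12.8 against 23.6 and 20.9 CPM, at 0.72 ± 0.109 (adjusted p 7.25e-04), and PRIM1 had 26.0 and 24.3 against 37.6 and 38.4 CPM, at 0.60 ± 0.092 (adjusted p 8.64e-04). POLA2, at 49.6 and 51.6 against 66.9 and 71.2 CPM, was higher by 0.45 ± 0.063 (adjusted p 5.32e-04). RPA3, at 20.3 and 21.0 against 25.2 and 28.2 CPM, was higher by 0.37 ± 0.083 (adjusted p 0.00695). The lines did not overlap in any of these 4 genes.

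The next comparison asks what entinostat did to replication genes in each line. In BRCA1+ cells 10 of the 51 genes were lower and 1 was higher after entinostat, against 6.0% lower and 8.13% higher over all genes tested, with a median of -0.15 against 0.00. The lower genes were CDT1, MCM4, MCM5, MCM7, DBF4, CDC45, LIG1, RRM2, CLSPN and TIMELESS. Both treated libraries lay below both controls for 32 of the 51 genes, or 62.7%, against 28.1% of all genes. The largest decreases called were those of RRM2, from 235 and 237 to 179 and 173 CPM (-0.42 ± 0.056, adjusted p 0.00239), CLSPN, from 73.6 and 63.8 to 55.8 and 49.97 CPM (-0.38 ± 0.098, adjusted p 0.0336), and MCM5, from 80.6 and 86.7 to 63.3 and 66.4 CPM (-0.37 ± 0.078, adjusted p 0.0167). MCM7 went from 429 and 424 to 346 and 345 CPM (-0.30 ± 0.051, adjusted p 0.00625). RFC1 was the one gene called higher, from 144 and 152 to 172 and 170 CPM (0.21 ± 0.053, adjusted p 0.0301). No origin recognition gene, primase or polymerase gene or chromatin assembly gene was called in this comparison. Leaving out any one library of these 2 groups brought the 11 calls down to 1 to 5: 5 without the first BRCA1+ control, 3 without the second, 3 without the first BRCA1+ entinostat library and 1 without the second. RRM2 was called in each of the alternatives tried.

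In BRCA1-null cells 7 genes were lower and 1 was higher after entinostat, against 3.19% lower and 7.57% higher over all genes, with a median of -0.07 against 0.02. The median was -0.0266 without the first BRCA1-null entinostat library and -0.0367 without the second BRCA1-null control. Both treated libraries lay below both controls for 24 genes, or 47.1%, against 24.7% of all genes. The lower genes were ORC6, MCM4, MCM7, GINS4, POLD1, LIG1 and RRM2. GINS4 went from 51.4 and 57.5 to 39.7 and 39.9 CPM (-0.45 ± 0.072, adjusted p 0.00699), RRM2 from 165 and 154 to 120 and 124 CPM (-0.38 ± 0.056, adjusted p 0.00519) and ORC6 from 39.0 and 40.2 to 33.4 and 27.8 CPM (-0.37 ± 0.087, adjusted p 0.0303). MCM4 went from 289 and 314 to 238 and 255 CPM (-0.29 ± 0.060, adjusted p 0.0187). RFC4, a small subunit of the clamp loader that overlaps EIF4A2, went from 108 and 106 to 127 and 121 CPM (0.22 ± 0.058, adjusted p 0.0461). Leaving out a library reduced the 8 calls to 4 without either BRCA1+ entinostat library, 4 and 1 without the first and second BRCA1-null control, and 3 without either BRCA1-null entinostat library. RRM2 alone was called in each of the alternatives tried.

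**Figure D4:**
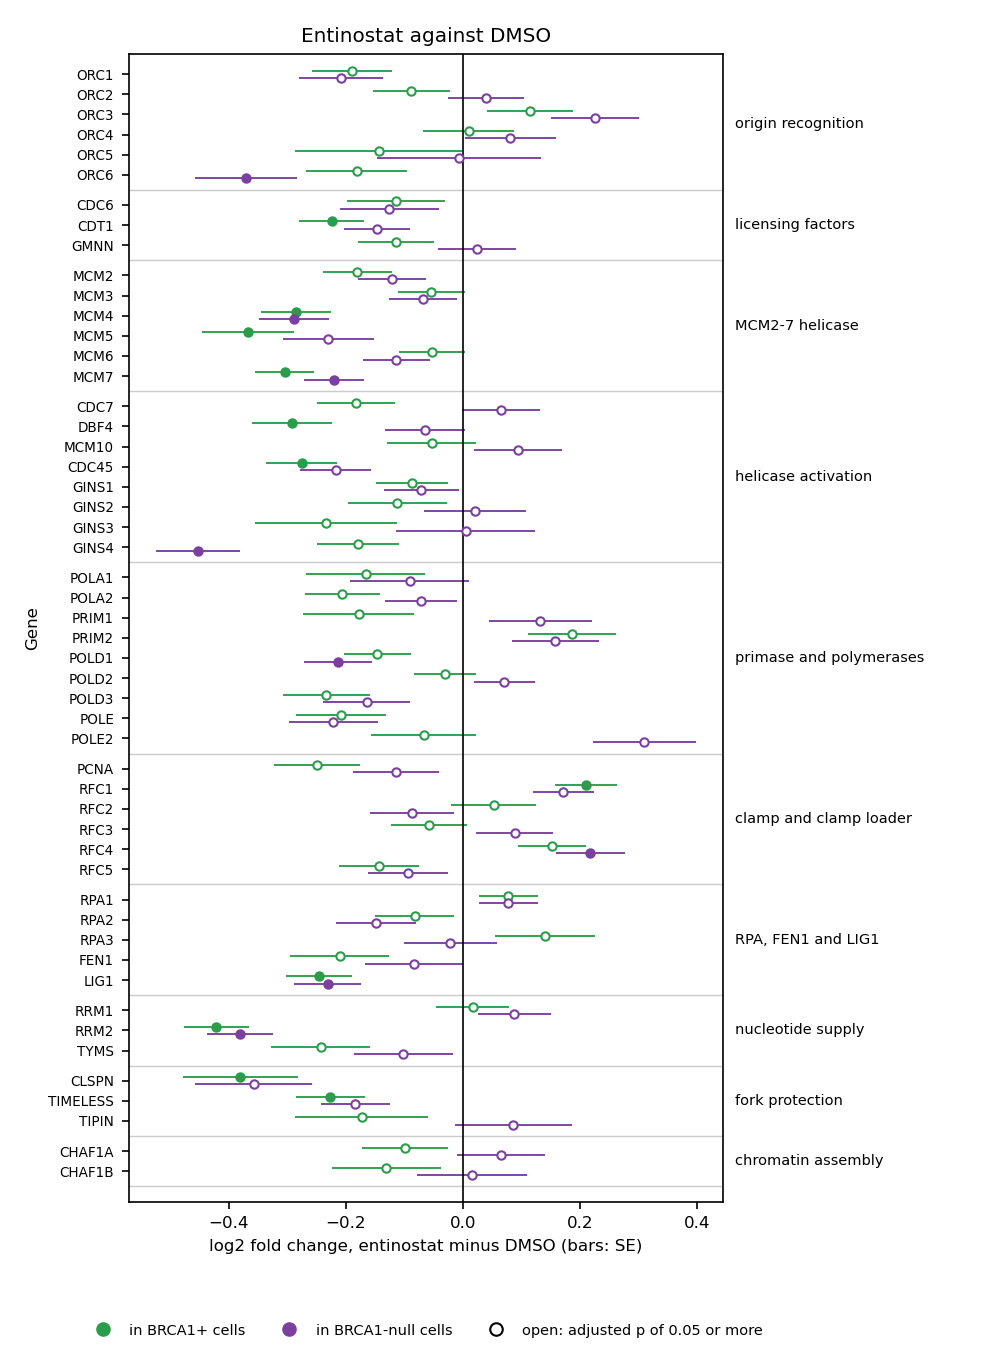
Log2 fold change of each replication gene (vertical axis, by role), entinostat minus DMSO, in BRCA1+ (green) and BRCA1-null cells (purple), with SE bars and open circles for genes not called. RRM2 lies at -0.42 and -0.38 with both circles filled, whereas most genes have open circles in both lines.

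MCM4, MCM7, LIG1 and RRM2 were called lower in both lines: 4 of 10 in BRCA1+ and 4 of 7 in BRCA1-null cells. The lines have separate libraries, but the fit takes its spread from all of them, so these calls are not independent. The same overlap was not counted over all genes tested. Averaged over the lines, 19 genes were lower and 4 were higher, against 10.9% and 15.2% over all genes tested. The higher ones were ORC3, PRIM2, RFC1 and RFC4, and the lower ones included 4 of the 6 MCM2-7 subunits (MCM2, MCM4, MCM5 and MCM7). Without the second BRCA1+ control or the second BRCA1+ entinostat library, 15 genes were called in place of 23. The lines' responses to entinostat were compared directly with the interaction, the effect in BRCA1-null minus that in BRCA1+ cells. By edgeR no gene of the 51 was called, and 0% of all genes tested. At an unadjusted p under 0.05 the interaction held 5 of the 51 genes and 827 of the 17714. The smallest p-values were those of POLE2 (0.38 ± 0.126) and GINS4 (-0.27 ± 0.100), each with an adjusted p of 0.967. POLE2, a subunit of polymerase epsilon, was at 18.4 and 19.7 CPM in BRCA1+ cells before and 19.1 and 17.5 CPM after treatment, and went from 16.0 and 17.2 to 20.8 and 20.5 CPM in BRCA1-null cells. The SE of the interaction ran from 0.071 to 0.200 over the 51 genes, so a missed threshold does not show that the lines responded alike.

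Combining the 4 pairwise comparisons, MCM7, LIG1 and RRM2 were lower in all 4, and 12 genes were called in none: ORC2, ORC5, MCM10, GINS3, POLA1, PRIM2, POLE, POLE2, RFC2, RFC5, FEN1 and RRM1. With the replicate number as a block, 6 of these 12 were called in at least 1 comparison. Another 12, among them ORC1, ORC3, GMNN and GINS1, were lower between the lines in both treatments and not called for entinostat in either line. Of these, ORC1 and POLD3 were called lower and ORC3 higher for the entinostat effect averaged over the lines, so a missed call within a line does not show that entinostat had no effect. RRM2 took 4 separate levels, from 235 and 237 CPM in BRCA1+ control through 179 and 173 and then 165 and 154 to 120 and 124 CPM in BRCA1-null entinostat. Over all genes tested, 42.2% were called between the lines in DMSO and 39.4% in entinostat. For entinostat 14.1% were called in BRCA1+ and 10.8% in BRCA1-null cells. The same patterns were not counted over all genes tested, and the comparisons share control libraries, so these patterns are a description.

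**Figure D5:**
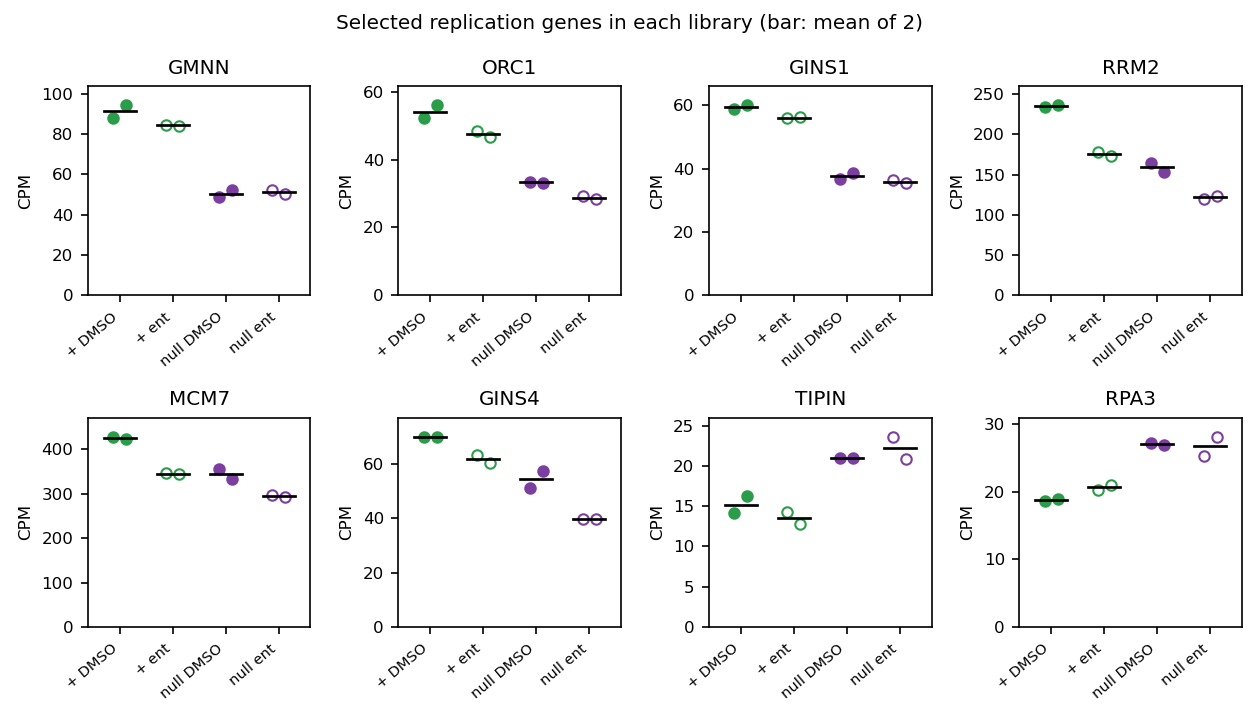
CPM of 8 replication genes (vertical axes from 0) in the 4 groups (horizontal axes; + is BRCA1+, null is BRCA1-null, ent is entinostat), with a point per library, open for entinostat, and a bar at the mean of 2. GMNN, ORC1 and GINS1 separate mainly by line, RRM2 and MCM7 step down with both line and entinostat, and TIPIN and RPA3 are higher in BRCA1-null cells.

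Lists of related genes were read beside the members. Among 37 other firing and fork genes, 9 were lower and 3 higher in BRCA1-null than in BRCA1+ control cells, with a median of -0.09. These are 24.3% and 8.11% of the list, against 21.0% and 21.1% of all genes tested, so the share of lower genes is near the background. The histone chaperones ASF1A (-0.75 ± 0.090) and NASP (-0.68 ± 0.059, 272 and 254 against 161 and 168 CPM) fell most, while POLD4, the smallest subunit of polymerase delta, was higher by 0.65 ± 0.098 and the FACT subunit SUPT16H by 0.32 ± 0.050. With entinostat in BRCA1+ cells 6 of the 37 (16.2%) were lower and 0 higher, against 6.0% and 8.13% of all genes tested. The decreases were led by MCM9 (-0.74 ± 0.173, adjusted p 0.0243) and the fork repair factor TONSL (-0.46 ± 0.075, adjusted p 0.00584). Among 15 other nucleotide supply genes, 7 were lower and 1 higher between the lines, which is 46.7% lower and 6.67% higher. RRM2B, the alternative small subunit of ribonucleotide reductase, was lower by -0.56 ± 0.083, and the nucleoside diphosphate kinase NME1 was higher by 0.54 ± 0.060. In BRCA1+ cells entinostat lowered 5 of these 15 (33.3%, against 6.0% of all genes tested), with CTPS1 at -0.40 ± 0.069 and CAD, of pyrimidine synthesis, at -0.40 ± 0.075. In BRCA1-null cells 3 of the 37 (8.11%) and 1 of the 15 (6.67%) were lower after entinostat, against 3.19% of all genes tested. None was higher, against 7.57% of all genes.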

How the data were processed

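Poly(A) RNA was sequenced from 8 libraries in 4 groups of 2. The authors deposited raw read counts per gene, which they had obtained by aligning to hg19 with TopHat and counting with NGSUtils. Strand and multi-mapping settings are not given in the sources used here. The table held 25369 named genes, and 1 unnamed row with 0 counts was left out. Columns were matched to samples through the labels, and none was left unused.

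Counts were analysed with edgeR 4.0.16 in R 4.3.3. filterByExpr left 17714 genes, TMM scaled the libraries, and one quasi-likelihood fit held all 8 libraries with 4 residual degrees of freedom. Tests were two-sided with Benjamini-Hochberg adjustment at 0.05. CPM used TMM library sizes, and RPKM also the deposited length. Scripts were tested on simulated data. A floor of 3 counts was 0.0552 to 0.0946 CPM per library and, like any interval from counts, covers counting error only. Replicates of a group correlated at 0.996 to 0.997 (Pearson, log2 CPM, across genes) and differed by more than sampling noise (chi-square per degree of freedom 8.3 to 14.2), so all 8 were kept.

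Gene positions are on hg19, counted from 1. Promoter sequences are from RefSeq on GRCh38.p14 and were not mixed with hg19 positions. The 51 genes and the other lists were chosen with earlier results of these data known. All 51 genes are named. Values per library were given for the 4 called genes rising and the 4 falling most in each pairwise comparison without overlap between groups, for the 2 smallest interaction p-values, the 3 highest and 3 lowest levels, and from each other list the 2 called genes rising and falling most between the 2 control groups and after treatment of BRCA1+ cells. Other per-library values were chosen after the values were seen. The values of 1 gene that this rule names are not reported here. Alternatives were DESeq2 1.42.0 (size factors and Wald test), upper-quartile factors, no filter or a stricter one (CPM of at least 1 in 2 libraries), the likelihood ratio test, the older quasi-likelihood form, a replicate block, only the groups compared, an added unadjusted threshold of 0.01, and leaving out each library.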

Additional observations from a re-analysis of the deposited data

How the results depend on the processing

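No called replication gene changed sign under any alternative, and 24 of 33 calls between the lines in DMSO, 19 of 27 in entinostat and 13 of 23 for the averaged entinostat effect held in every alternative. Only 1 of 11 calls in BRCA1+ cells and 1 of 8 in BRCA1-null cells did, RRM2 in both. Leaving out 1 library gave 26 to 34 calls between the lines in DMSO, 21 to 28 in entinostat, 1 to 13 for entinostat in BRCA1+ cells (lowest without the second BRCA1+ entinostat library), 1 to 7 in BRCA1-null cells (lowest without the second BRCA1-null control), 15 to 20 averaged and 0 for the interaction. The median log2 fold change then ran from -0.280 to -0.215, -0.212 to -0.119, -0.188 to -0.107, -0.102 to -0.0266, -0.147 to -0.0790 and 0.0352 to 0.0791 in the same order, with -0.119 and -0.0266 both without the first BRCA1-null entinostat library. Upper-quartile factors gave medians of -0.225 between the lines in DMSO, -0.0988 for entinostat in BRCA1+ cells (7 calls) and 0.0278 for the interaction, and the stricter filter gave -0.234 and 0.0354 for the first and last of these. Upper-quartile factors moved the median of all genes by less than 0.1. The members' median minus that of all genes was -0.28, -0.147 and 0.0433 with these factors, against -0.28, -0.147 and 0.0442 in the main fit. With the stricter filter it was -0.25 and 0.0395 for the first and last. With only the 2 groups compared in the fit, entinostat in BRCA1-null cells had 2 calls, with fewer libraries behind the spread. With the replicate number as a block there were 39 calls between the lines in DMSO, 31 in entinostat, 18 for entinostat in BRCA1+ and 17 in BRCA1-null cells, 27 averaged and 0 for the interaction. Of the 12 genes called in no pairwise comparison, the block called 6 in at least 1: ORC2, POLA1, POLE, POLE2, FEN1 and RRM1. Same-numbered libraries deviated together with correlations of 0.139 to 0.509 over the 6 pairs of groups (0.234 to 0.719 for genes above a log2 CPM of 3, higher within a line than between lines), but with 2 numbers and no statement in the labels they are not taken as pairs. The cause of the other changes was not tested. The members had at least 454 counts in each library.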

Other observations

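Regulators of the G1/S step, a list of 32 genes, included 11 that were lower and 2 that were higher in BRCA1-null than in BRCA1+ control cells. In all 40.6% of the list was called, against 42.2% of all genes tested, with 34.4% lower against 21.0%. MYC was higher by a log2 fold change of 0.64 ± 0.099 (109 and 101 against 180 and 147 CPM) and E2F5 by 0.38 ± 0.085. E2F2, an activator of S-phase genes, was lower by -1.31 ± 0.164 (8.18 and 7.47 against 3.41 and 2.94 CPM), and the CDK inhibitor CDKN1C by -1.002 ± 0.239 at levels below 2 CPM. E2F1 was at -0.23 ± 0.085 with an adjusted p of 0.0544 from edgeR. Entinostat raised CDKN1A, which encodes the CDK inhibitor p21, in both lines, from 4.20 and 3.83 to 13.7 and 12.4 CPM in BRCA1+ cells (1.69 ± 0.208) and from 4.86 and 3.66 to 11.6 and 7.95 CPM in BRCA1-null cells (1.22 ± 0.204). CCND1, the cyclin D1 gene, was lower after entinostat in BRCA1+ cells by -0.45 ± 0.093 and E2F5 by -0.41 ± 0.092, while E2F2 was higher by 0.49 ± 0.139. In BRCA1+ cells 7 of the 32 (21.9%) were lower and 3 (9.38%) higher after entinostat, against 6.0% and 8.13% of all genes tested. In BRCA1-null cells CDKN1A was the 1 gene of the 32 called after entinostat, or 3.12%, against 10.8% of all genes tested. The interaction was called for 0 of the 32, and for 0% of all genes tested.

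Among 38 mitotic genes, 10 were lower and 6 higher in BRCA1-null control cells, with a median of -0.06. The called share was 42.1% against 42.2% of all genes tested, and 26.3% were lower against 21.0%, so neither stands far from the background. CDC25C, the phosphatase that activates CDK1, was lower by -1.10 ± 0.108 (23.3 and 25.5 against 10.6 and 12.1 CPM), and PTTG1, which encodes securin, by -0.70 ± 0.053. INCENP (0.56 ± 0.095) and KIF23 (0.44 ± 0.066), which act at the central spindle, were higher. With entinostat 10 of the 38, or 26.3%, were lower in BRCA1+ cells, against 6.0% of all genes tested and 19.6% of the 51 replication genes. The median was -0.15 for the mitotic genes and -0.15 for the replication genes, so the decrease was not particular to replication genes. Among the 10 were HMMR (-0.48 ± 0.133) and CCNB1 (-0.30 ± 0.058). In BRCA1-null cells none of the 38 was called by edgeR, against 10.8% of all genes tested. An unadjusted p under 0.05 was held by 11 of the 38 and by 4856 of the 17714 genes tested, so that count is near the background. The difference between the lines in these responses was not called for any gene.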
